A study of Mus musculus with 8 samples.

Results

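The genes described here are the feedback genes of fibroblast growth factor (FGF) and ERK signaling, chosen by their symbols: Spry1, Spry2, Spry4, Spred1, Spred2, Spred3, Dusp6, Etv1, Etv4 and Etv5. They are 10 of the 43629 genes counted in every embryo. RNA-seq was performed on the lower first molars of mouse embryos at E18.5, 4 with the genotype K14Cre;Jagged1 fl/fl (mutant; K14J26, K14J28, K14J29 and K14J30) and 4 littermates with the genotype Jagged1 fl/fl (control, called WT in the study; J3, J5, J6 and J7). The controls therefore carry the floxed alleles too. The keratin 14 promoter drives Cre in the epithelium, while each sample held the whole molar, with left and right pooled per animal. The sex and the litter of the embryos were not given. The comparison asks how transcript levels in the molar differ when the Notch ligand Jagged1 is deleted in the epithelium.

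When an FGF binds its receptor, the signal runs through RAS, RAF and MEK to the kinase ERK, which enters the nucleus and turns on target genes. Among these targets are the pathway's own inhibitors: the Sprouty proteins (Spry genes) and the Spred proteins hold back RAS and RAF activation, and the phosphatase Dusp6 removes the activating phosphates from ERK. Etv1, Etv4 and Etv5 form the PEA3 branch of the ETS transcription factors, and their transcripts are widely read as a sign of FGF signaling. In the tooth, FGFs pass between epithelium and mesenchyme and from the enamel knots, the epithelial signaling centers where cusps form.

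The control libraries held 17327224 to 28613574 counts on genes, with a median of 21048365, and the mutant libraries 24692128 to 29792467, with a median of 27108579. Levels are given as CPM, the count scaled by the TMM-normalized library size, and 3 counts correspond to at most 0.166 CPM. Each of the 10 genes had at least 207 counts in every embryo and passed the filter on low counts. Markers of dental epithelium and of dental mesenchyme were present in all 8 molars: the summed level of 8 epithelial genes, led by Krt5, lay between 4671 and 8098 CPM, and that of 8 mesenchymal genes, led by Col1a1, between 7418 and 19919 CPM.

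Jag1, the deleted gene, had 95.2, 103, 104 and 99.9 CPM in controls J3, J5, J6 and J7, and 34.0, 39.0, 46.0 and 57.1 CPM in mutants K14J26, K14J28, K14J29 and K14J30. All mutants were below all controls, and transcripts remained in every mutant. Its log2 fold change, mutant over control, was -1.19 (SE 0.14, adjusted p = 0.00517, edgeR's quasi-likelihood test, Benjamini-Hochberg over all tested genes), and it passed in each of the 8 fits that left out 1 embryo.

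Of the 10 feedback genes, 6 fell in the mutant molars at an adjusted p under 0.05 and 0 rose (edgeR's quasi-likelihood test). Across all 17129 genes tested, 6.61% fell and 9.52% rose by the same rule. All 4 mutant values lay below all 4 control values for the same 6 genes, as they did for 11.6% of all genes tested. No feedback gene rose at an unadjusted p under 0.05 either, nor with DESeq2 or limma-voom, which both gave 6 lower and 0 higher. With library size scaling 3 fell, without calls for Spry4, Dusp6 and Etv4, and with the robust form of edgeR 4, without Spry4 and Etv4. With a score of skeletal muscle markers as a covariate 1 fell (Spry2), and with a score of ameloblast markers 0, with 3 at an unadjusted p under 0.05 (edgeR). In the fit with the muscle score the log2 fold changes stayed near those without it, at -0.77 for Spry1, -0.90 for Spry4, -0.35 for Spred1, -0.76 for Dusp6 and -1.08 for Etv4. The log2 fold change was below 0 for all 10 genes, also with each of the other scalings, and its median was -0.63 against 0.01 for all genes tested. In bulk tissue, fewer cells of a type and less RNA per cell cannot be told apart. The share of rises among all calls depends on the scaling: 1631 genes rose and 1133 fell with TMM, 1363 and 1448 with upper-quartile scaling, and 855 and 1060 with library size only.

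**Figure D1:**
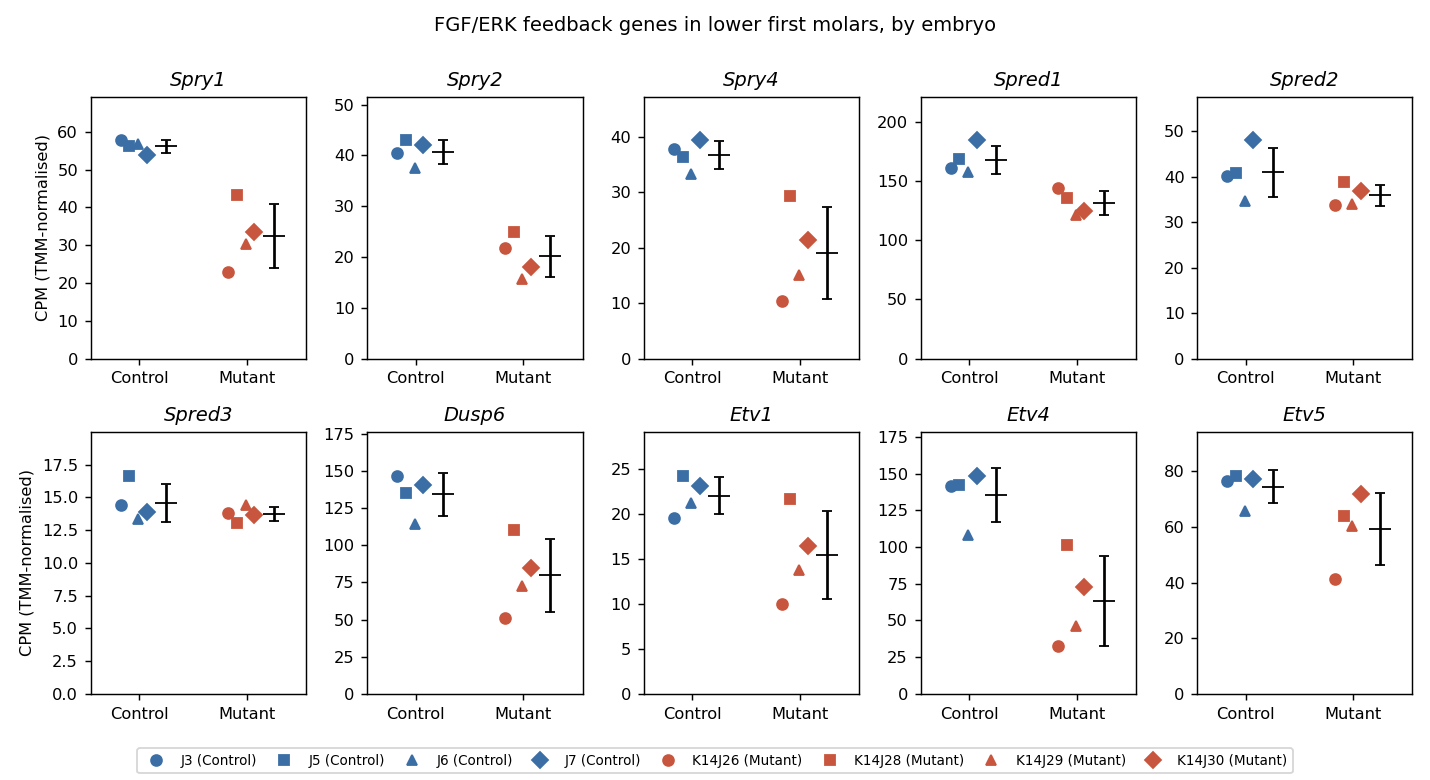
TMM-normalised CPM of the 10 feedback genes (y axes, each from 0) in 4 control (blue) and 4 mutant (red) molar samples, 1 symbol per embryo, with the mean and SD of each group beside them in black. The groups are apart for Spry1, Spry2, Spry4, Spred1, Dusp6 and Etv4, and overlap for Spred2, Spred3, Etv1 and Etv5.

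The 3 Sprouty genes encode inhibitors that act upstream of ERK. Spry2 (chr14:105891947-105896819 of GRCm38) had 40.4, 43.0, 37.5 and 42.0 CPM in controls J3, J5, J6 and J7 and 21.7, 25.0, 15.7 and 18.0 CPM in mutants K14J26, K14J28, K14J29 and K14J30. The mutants spread from 15.7 CPM in K14J29 to 25.0 CPM in K14J28, all far below the controls. This corresponds to 50.7% less transcript, a log2 fold change of -1.02 (SE 0.14, adjusted p = 0.00695, edgeR's quasi-likelihood test). Spry1 (chr3:37639947-37644598) had 57.8, 56.2, 56.8 and 53.7 CPM in the controls and 22.8, 43.2, 30.2 and 33.4 CPM in the mutants, in the same order of embryos. The controls were nearly level, whereas the mutants spread from K14J26, the lowest, to K14J28, the highest. Its log2 fold change was -0.79 (SE 0.16, adjusted p = 0.0174, edgeR's quasi-likelihood test). The exons of Spry1 overlap those of Gm42922, a gene model on the opposite strand that is not in the count tables, so reads from it may have been counted for Spry1. Spry4 (chr18:38586247-38601415) had 37.8, 36.4, 33.4 and 39.4 CPM in the controls and 10.3, 29.3, 15.0 and 21.4 CPM in the mutants. The same embryos marked the ends of the mutant group, with K14J28 only slightly below the lowest control, J6. The log2 fold change of Spry4 was -0.95 (SE 0.26, adjusted p = 0.0412, edgeR's quasi-likelihood test).

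The Spred genes encode membrane-bound relatives of Sprouty that recruit neurofibromin, a RAS inactivator. Spred1 (chr2:117121374-117182279) had 161, 168, 157 and 184 CPM in controls J3, J5, J6 and J7 and 144, 136, 121 and 124 CPM in mutants K14J26, K14J28, K14J29 and K14J30. Its mutant values kept within a narrow band, and K14J26, the lowest embryo for most of the genes, was here the highest mutant. Spred1 fell by 0.35 on the log2 scale (SE 0.08, adjusted p = 0.0209, edgeR's quasi-likelihood test), the smallest of the 6 called changes, 21.7% less transcript. Spred2 ranged from 34.7 to 48.0 CPM in the controls and from 33.8 to 38.7 CPM in the mutants, and its log2 fold change of -0.19 (SE 0.10) had an adjusted p of 0.208 (edgeR's quasi-likelihood test). Spred3 ranged from 13.4 to 16.7 CPM in the controls and from 13.1 to 14.4 CPM in the mutants, with a log2 fold change of -0.09 (SE 0.09, adjusted p = 0.527, same test). For both genes the groups overlapped, and the value moved with single controls, to -0.11 without J7 for Spred2 and to -0.03 without J5 for Spred3. The difference between Spred1 and the other Spred genes was not tested. The exons of Spred3 overlap those of Ggn, a gene on the opposite strand with 0.363 to 1.32 CPM, so a few reads of either gene may have been counted for the other; Ggn rose in the mutants, by a log2 fold change of 1.09 (SE 0.28, adjusted p = 0.0313, edgeR's quasi-likelihood test).

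Dusp6 (chr10:99263231-99267489) encodes the cytoplasmic ERK phosphatase. It had 147, 135, 114 and 141 CPM in controls J3, J5, J6 and J7 and 51.2, 110, 72.6 and 84.6 CPM in mutants K14J26, K14J28, K14J29 and K14J30. K14J26 was the lowest of the 8 embryos, and K14J28 came within a few CPM of control J6 without reaching it. The log2 fold change was -0.75 (SE 0.20, adjusted p = 0.0354, edgeR's quasi-likelihood test), or 40.6% less transcript.

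Because several of these genes fell together, the bases before their start sites were searched for binding motifs of factors downstream of ERK and Notch. RefSeq promoters (GRCm38.p6, 250 bases before to 50 after a start) were matched for 8 of the 10 genes, with 10 promoters, and Spry4 and Etv4 had no match. On both strands, the ETS motif CCGGAAG, the AP-1 motif TGANTCA, the CRE motif TGACGTCA and the RBPJ motif GTGGGAA were found in 0 of these promoters, and in 8.86%, 7.81%, 1.79% and 6.38% of all 32851 promoters. The shorter ETS cores AGGAAG and CGGAAG, the latter contained in CCGGAAG, were then added after that result was seen. AGGAAG was found in 4 of the 10 promoters (1 each of Spred2, Dusp6, Etv1 and Etv5) and in 35.4% of all promoters, and CGGAAG in 3 of the 10 (Spred1, Spred2 and Dusp6) and in 16.9% of all promoters. The 250 bases before the start are shown for the 4 genes that fell and have an entry, because they carry the shared change; capitals mark the ETS cores on either strand.
Spry1 (chr3:37639697-37639946, plus strand): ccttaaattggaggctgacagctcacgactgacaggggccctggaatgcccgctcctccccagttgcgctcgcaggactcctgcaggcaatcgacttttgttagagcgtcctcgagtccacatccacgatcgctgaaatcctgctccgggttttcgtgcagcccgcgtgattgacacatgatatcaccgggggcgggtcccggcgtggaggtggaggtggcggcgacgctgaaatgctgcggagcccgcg
Spry2 (chr14:105896820-105897069, minus strand): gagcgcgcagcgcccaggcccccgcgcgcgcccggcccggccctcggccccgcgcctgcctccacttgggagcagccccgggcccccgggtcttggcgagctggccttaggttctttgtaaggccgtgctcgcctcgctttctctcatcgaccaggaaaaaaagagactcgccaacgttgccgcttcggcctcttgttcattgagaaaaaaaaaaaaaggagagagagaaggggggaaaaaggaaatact
Spred1 (chr2:117120821-117121070, plus strand): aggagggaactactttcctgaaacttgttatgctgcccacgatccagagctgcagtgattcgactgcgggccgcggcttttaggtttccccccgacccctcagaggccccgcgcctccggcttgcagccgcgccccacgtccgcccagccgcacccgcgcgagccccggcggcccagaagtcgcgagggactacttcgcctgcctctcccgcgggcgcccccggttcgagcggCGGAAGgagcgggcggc
Dusp6 (chr10:99262981-99263230, plus strand): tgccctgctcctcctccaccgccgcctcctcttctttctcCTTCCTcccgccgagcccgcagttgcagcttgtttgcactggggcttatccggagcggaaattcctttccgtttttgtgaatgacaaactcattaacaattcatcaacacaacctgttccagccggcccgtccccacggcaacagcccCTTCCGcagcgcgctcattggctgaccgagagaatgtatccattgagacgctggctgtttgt
The Dusp6 stretch holds 1 core of each kind, read on the opposite strand, and the Spred1 stretch holds 1 CGGAAG close to the RefSeq start. For Spred1 this start, just after base 117121070, lies before the start of the gene position given above, 117121374. Neither core occurs in the Spry1 and Spry2 stretches, which says only that these letters are not in these windows. A match is a description of the sequence, and binding was not measured.

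The PEA3 genes encode transcription factors. Etv4 (chr11:101769742-101785371) had 142, 142, 108 and 149 CPM in controls J3, J5, J6 and J7 and 32.7, 101, 46.2 and 72.5 CPM in mutants K14J26, K14J28, K14J29 and K14J30. Control J6 was well below the other controls, and mutant K14J28 only just below J6. Etv4 had the largest fold change of the 10 genes and also the largest error, a log2 fold change of -1.09 (SE 0.30, adjusted p = 0.0392, edgeR's quasi-likelihood test). Etv5 had 76.5, 78.4, 65.7 and 77.2 CPM in the controls and 41.2, 63.9, 60.3 and 71.8 CPM in the mutants. Mutant K14J30 was above control J6, and only K14J26 stood far from the rest. Its log2 fold change of -0.33 (SE 0.15) had an adjusted p of 0.153 (edgeR's quasi-likelihood test), and without K14J26 it was -0.19. Etv1 had 19.5, 24.2, 21.2 and 23.1 CPM in the controls and 9.95, 21.7, 13.8 and 16.4 CPM in the mutants. The value of mutant K14J28 lay among the controls, while the other mutants were lower. The log2 fold change of Etv1 was -0.51 (SE 0.20, adjusted p = 0.111, edgeR's quasi-likelihood test).

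Levels were compared between genes per kilobase of annotated exon. In the controls Etv4 (43.5 ± 5.92 CPM per kb, SD, n = 4) and Dusp6 (42.9 ± 4.55) stood highest, with overlapping ranges and either order within single embryos. Spred1 followed with 24.7 ± 1.77 CPM per kb, and then Spry2 (19.5 ± 1.15), Spry1 (19.3 ± 0.590) and Etv5 (18.1 ± 1.43), whose ranges overlapped, although Etv5 was below Spry2 within each control. Spred2 (8.85 ± 1.18) and Spry4 (7.73 ± 0.536) overlapped too, with Spred2 the higher within each control, and Spred3 (2.35 ± 0.232) and Etv1 (1.66 ± 0.155) were the lowest. Etv1 has 13296 bases of annotated exons, more than any of the other genes. A level per kb depends on which exons are used, and this was not compared between the genes. In the mutants Dusp6 had 25.4 ± 7.87 CPM per kb, Etv4 20.4 ± 9.78 and Spred1 19.4 ± 1.55; these ranges overlapped, while Dusp6 was above Etv4 within each of the 4 mutants. These orders were not tested.

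Within the PEA3 family the shares of Etv4 and Etv5 differed between the groups. Etv4 made up 69.4%, 68.7%, 66.4% and 70.0% of the summed CPM per kb of the 3 genes in controls J3, J5, J6 and J7, and 49.4%, 65.5%, 48.6% and 55.5% in mutants K14J26, K14J28, K14J29 and K14J30. All mutants were below all controls, although K14J28 was less than 1 percentage point below J6. The share of Etv5 was 28.8% ± 1.29 in the controls and 42.0% ± 7.70 in the mutants (SD, n = 4 each), also without overlap. As the share of Etv1 is small, this is nearly the complement of the Etv4 share and not a separate result. The level of Etv5 itself was 18.1 ± 1.43 CPM per kb in the controls and 14.4 ± 3.16 in the mutants, with overlap. The share of Etv1 was 2.64% on average in the controls and 3.27% in the mutants, with 3 of the 4 mutants above every control and K14J30 among them. For the 3 Sprouty genes and for the 3 Spred genes the corresponding shares overlapped between the groups. These shares were not tested.

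**Figure D2:**
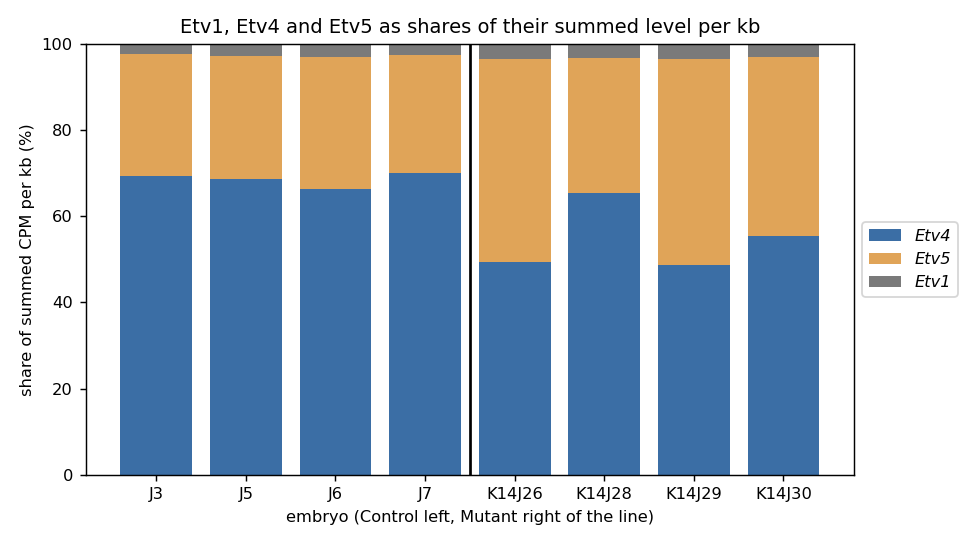
Shares of Etv4 (blue), Etv5 (orange) and Etv1 (grey) in their summed CPM per kb (y axis, percent) for each embryo (x axis; controls left of the line, mutants right). Etv4 held 66.4% to 70.0% in the controls and 48.6% to 65.5% in the mutants.

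The mutants differed among themselves, and largely in the same order. K14J26 was the lowest of all 8 embryos for 7 of the 10 genes, K14J29 for 2 (Spry2 and Spred1) and K14J28 for 1 (Spred3), while K14J28 was the highest mutant for 7. Against the control mean of log2(CPM + 0.1), Etv4 was lower by log2 differences of -2.03 (K14J26), -1.54 (K14J29), -0.89 (K14J30) and -0.40 (K14J28). In that order of embryos the differences were -1.38, -0.88, -0.66 and -0.28 for Dusp6 and -1.82, -1.28, -0.78 and -0.32 for Spry4. Spry2 ranked the embryos otherwise, with differences of -0.90, -1.37, -1.17 and -0.70. For 6 of the 10 genes (Spry1, Spry4, Spred2, Dusp6, Etv1 and Etv4) the level fell from K14J28 over K14J30 and K14J29 to K14J26, an order found for 12.5% of all genes tested. The order was chosen after seeing the values of these same genes, so the counts are a description and not a test.

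The ameloblast markers had the opposite order. Of 5 ameloblast genes (Amelx, Ambn, Enam, Mmp20 and Klk4), which encode enamel matrix proteins and the proteases that process them, 4 rose and 0 fell in the mutants by edgeR's quasi-likelihood test (unadjusted, 5 and 0; DESeq2, 5 and 0; limma-voom, 3 and 0), with Amelx the most abundant. Their summed level was 680, 1903, 3254 and 557 CPM in controls J3, J5, J6 and J7 and 114369, 3503, 25820 and 9643 CPM in mutants K14J26, K14J28, K14J29 and K14J30. K14J26 thus held by far the most, 9.57% of all its counts on Amelx, Ambn and Enam, and K14J28 was close to control J6. The mean log2(CPM + 0.1) of the list was 4.79, 6.14, 6.88 and 4.75 in the controls and 11.78, 6.95, 9.79 and 8.18 in the mutants, without overlap. The same mean over 8 proliferation genes, led by Mki67, was 7.21, 7.06, 6.98 and 7.19 in the controls and 5.52, 7.19, 6.51 and 6.90 in the mutants; 0 of the 8 passed the test (edgeR, with 2 lower and 0 higher at an unadjusted p under 0.05; 1 and 0 with DESeq2; 0 and 0 with limma-voom). K14J26 was again the farthest from the controls, and K14J28 lay among them.

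With the ameloblast score of each embryo as a covariate, 0 of the 10 feedback genes passed the adjusted threshold in edgeR, 3 had an unadjusted p under 0.05 (Spry1, Spry2 and Spred1), and 112 genes fell and 186 rose in all. In this fit Spry2 kept a log2 fold change of -0.88 (SE 0.19) and Spred1 one of -0.37 (SE 0.11), whereas Spry1 had -0.34 (SE 0.14). Those of Spry4, Dusp6 and Etv4 were -0.12 (SE 0.15), -0.08 (SE 0.10) and -0.14 (SE 0.15), and those of Spred2, Etv1 and Etv5 were above 0, at 0.03, 0.04 and 0.11. The score did not overlap between the genotypes but varied among the mutants. Jag1 was still called in this fit, with a log2 fold change of -1.04 (adjusted p = 0.0391, edgeR's quasi-likelihood test; over its 25 alternatives from 2.04e-12 with DESeq2 to 0.114 without J6 and J7). The part of ameloblast or proliferating cells in the lower levels was not tested.

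**Figure D3:**
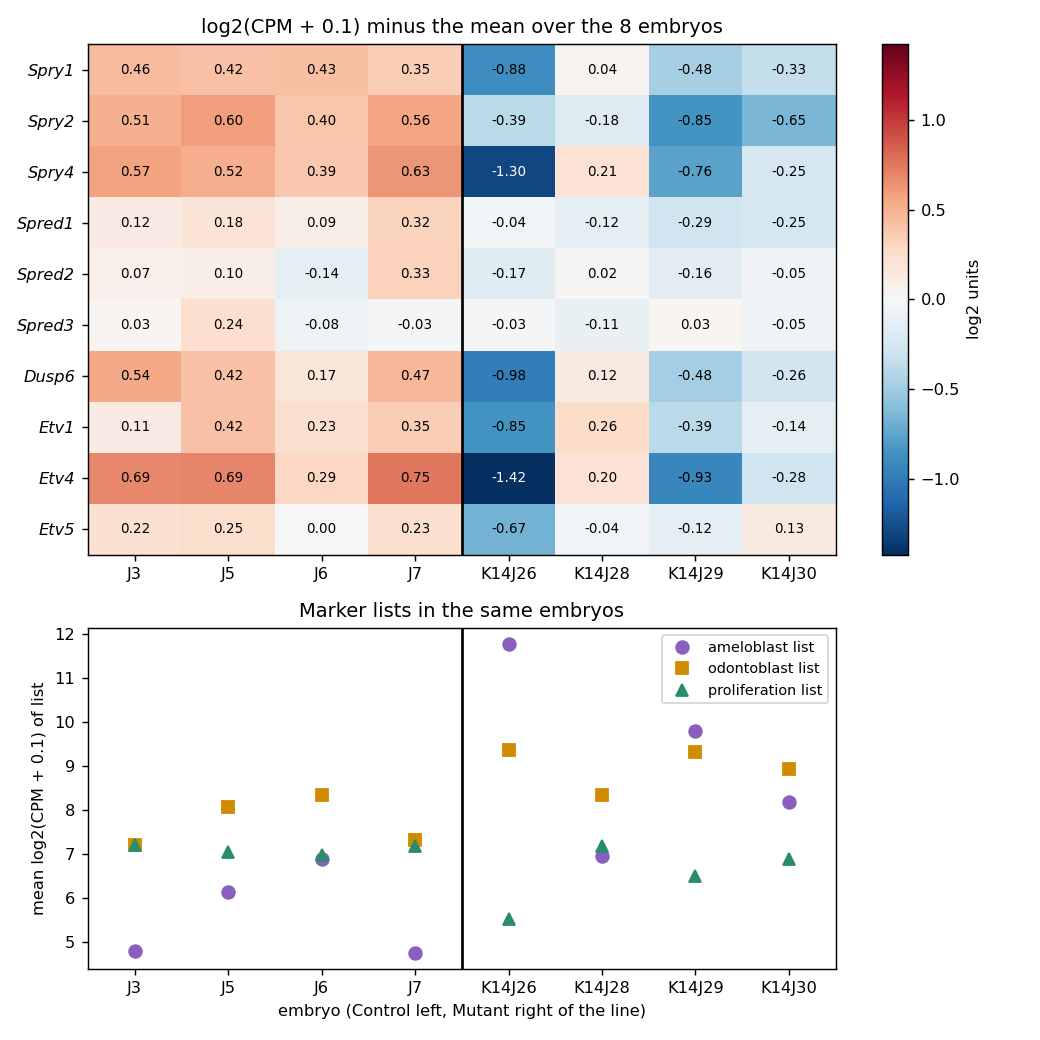
Top, log2(CPM + 0.1) of each feedback gene minus its mean over the 8 embryos (color scale and printed values, log2 units); bottom, mean log2(CPM + 0.1) of the ameloblast, odontoblast and proliferation lists in the same embryos (controls left of the line, mutants right). K14J26 has the lowest value for 7 of the 10 genes and the highest ameloblast score, 11.78, while K14J28, at 6.95, is next to control J6, at 6.88.

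Other marker lists moved as well. Of 4 odontoblast genes, led by Dspp, 3 rose, and their summed level was 708, 1590, 1995 and 765 CPM in controls J3, J5, J6 and J7 and 7483, 2347, 5693 and 3500 CPM in mutants K14J26, K14J28, K14J29 and K14J30. Of 4 bone genes 3 rose. Ibsp, the most abundant of the 4, was not among them, with 448 CPM in K14J28 and 141 to 169 CPM in the other mutants, against 164 to 189 CPM in the controls. Among 8 dental epithelium genes 1 rose (Krt14) and 0 fell in edgeR, with 4 and 2 at an unadjusted p under 0.05, 4 and 1 with DESeq2 and 1 and 1 with limma-voom. Among 8 dental mesenchyme genes 2 rose (Pdgfra and Col1a1) and 3 fell (Msx1, Twist1 and Lum). Of 6 endothelial genes 1 fell (Tie1) in edgeR and in limma-voom, and 3 at an unadjusted p under 0.05 and with DESeq2, while of 6 Schwann cell and nerve genes 1 fell (Erbb3) and 1 rose (Tubb3). Of 6 macrophage and immune genes and of 6 tested erythroid genes, 0 passed in edgeR, at an unadjusted p under 0.05, in DESeq2 or in limma-voom. The 8 skeletal muscle genes, led by Acta1, summed to 400 CPM in J6, to 199 CPM in J7 and to no more than 18.9 CPM elsewhere. In edgeR 1 of them fell (Ckm), with 7 at an unadjusted p under 0.05, 6 with DESeq2 and 0 with limma-voom. Without J6 and J7, an alternative chosen after seeing the data, 0 of the 10 feedback genes passed in edgeR, with 6 at an unadjusted p under 0.05, and 4 genes fell in all. Their fold changes were of similar size in this smaller fit, with a median log2 fold change of -0.66, and -1.06 for Spry2, -0.82 for Spry1 and -1.17 for Etv4. The level of Xist was 1930 CPM in K14J28, 1468 CPM in K14J29 and no higher than 1.09 CPM elsewhere. With Xist as a covariate Spred1 lost its call (log2 fold change -0.32, adjusted p = 0.0656, edgeR's quasi-likelihood test; over its 25 alternatives from 0.00122 with DESeq2 to 0.151 without J6 and J7) and the other 5 kept theirs. The part of these cell types in the feedback genes' levels was not tested.

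Most of the 6 calls changed when single embryos were left out, with fewer samples in each fit. Spry2 passed in all 8 fits that left out 1 embryo, with adjusted p between 0.00318 and 0.0288 (edgeR's quasi-likelihood test). Spry1 passed in 5 and was lost without J3 (adjusted p = 0.0533), J7 (0.0529) or K14J29 (0.0612), from 0.00420 upward over the 8 fits of edgeR's quasi-likelihood test. Spred1 passed in 4 and was lost without J3 (adjusted p = 0.0527), J5 (0.0549), J7 (0.0599) or K14J29 (0.0701), from 0.00924 upward in the same test. Where lost, their log2 fold changes were -0.82 to -0.76 for Spry1 and -0.37 to -0.31 for Spred1. Spry4, Dusp6 and Etv4 passed only without K14J26 or without K14J28. Without J3, J5, J6, J7, K14J29 or K14J30 they were lost, with adjusted p of 0.0637 to 0.114 for Spry4, 0.0531 to 0.0991 for Dusp6 and 0.0582 to 0.108 for Etv4 (edgeR's quasi-likelihood test). In these 6 fits their log2 fold changes stayed near those with all embryos, at -1.005 to -0.85 for Spry4, -0.82 to -0.71 for Dusp6 and -1.19 to -0.97 for Etv4. Without K14J26, the mutant with the lowest levels of most genes, their log2 fold changes were -0.74, -0.59 and -0.88, and without K14J28 they were -1.24, -0.95 and -1.42. Etv1 passed without K14J28 (log2 fold change -0.72, adjusted p = 0.0167, up to 0.235 in the other 7 fits, same test). The number of the 10 genes that fell was 1 without J3, J7 or K14J29, 2 without J5, 3 without J6 or K14J30, 6 without K14J26 and 7 without K14J28. The number of calls over all genes varied too: 1133 genes fell with all embryos, 287 without J3, 236 without J7, 170 without K14J29, 388 without J5, 553 without J6, 824 without K14J30, 1349 without K14J26 and 1843 without K14J28. All 10 log2 fold changes stayed below 0 in each of the 8 fits.

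**Figure D4:**
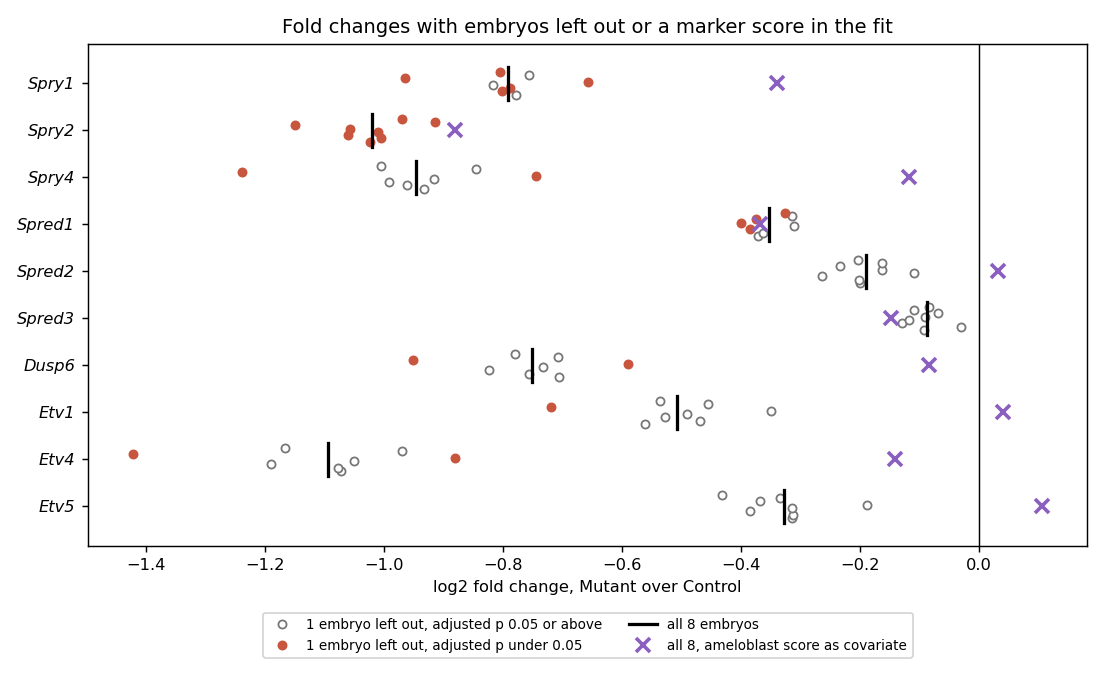
Log2 fold change, mutant over control (x axis), of each feedback gene with all 8 embryos (black bar), with each embryo left out in turn (circles, filled where the adjusted p was under 0.05), and with the ameloblast score as a covariate (cross). Spry2 is filled in all 8 fits and its cross lies at -0.88, while the crosses of Spry4, Dusp6 and Etv4 lie between -0.14 and -0.08.

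Other genes of the pathway were compared by list. Of 22 FGF ligand genes 15 were tested, and 2 fell and 0 rose (edgeR; unadjusted, 3 and 2; DESeq2, 3 and 1; limma-voom, 2 and 0). Fgf9, an epithelial ligand of the tooth germ, had 29.3, 26.7, 20.7 and 25.5 CPM in controls J3, J5, J6 and J7 and 2.60, 12.9, 5.23 and 11.3 CPM in mutants K14J26, K14J28, K14J29 and K14J30. Fgf3, made in the dental mesenchyme and the enamel knot, had 24.0, 17.9, 21.9 and 23.9 CPM in the controls and 4.23, 14.01, 5.65 and 12.1 CPM in the mutants. For both ligands all mutants were below all controls, with K14J26 the lowest and K14J28 the highest mutant. Their log2 fold changes were -1.66 (SE 0.40, adjusted p = 0.0282) and -1.28 (SE 0.34, adjusted p = 0.0351, edgeR's quasi-likelihood test), and with the ameloblast covariate -0.45 and -0.30. Fgf9 lost its call without J3, J5, J7 or K14J29 (adjusted p up to 0.0839) and Fgf3 without those or J6 (up to 0.0939, edgeR's quasi-likelihood test). With Xist as a covariate both ligands lost their calls, while their log2 fold changes were -1.96 (Fgf9) and -1.49 (Fgf3). Of 5 receptor genes tested, 1 fell and 0 rose (unadjusted, DESeq2 and limma-voom, 1 and 0 each): Fgfr4, whose level was at most 0.948 CPM, or 25 counts, in any embryo, and whose call was lost without J3, J5, J7 or K14J29 (adjusted p up to 0.0607, edgeR's quasi-likelihood test) or with Xist as a covariate. The main receptors by level were not called: Fgfr1 had 983 ± 86.0 CPM in the controls and 1169 ± 182 in the mutants (SD, n = 4), and Fgfr2 332 ± 9.45 and 303 ± 24.5.

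Of 24 tested genes of the cascade from adaptors to ERK and its RSK kinases, 0 passed in edgeR, with 3 lower and 3 higher at an unadjusted p under 0.05, 1 lower in DESeq2 and 0 in limma-voom. With upper-quartile scaling 2 of them fell and with library size only 3; without K14J26 3 fell, and without K14J28 2 fell and 1 rose. The median log2 fold change of this list was -0.03. Ptpn11, which encodes the phosphatase SHP2, had a log2 fold change of 0.14 (SE 0.06, adjusted p = 0.139, edgeR's quasi-likelihood test).

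Of 21 tested genes for other negative regulators, 4 fell and 3 rose. The phosphatase genes Dusp4, Dusp5 and Dusp8 had log2 fold changes of -1.21 (SE 0.30), -0.66 (SE 0.17) and -0.41 (SE 0.12), and Il17rd, which encodes the FGF antagonist Sef, one of -0.69 (SE 0.17). Dusp4 had 4.54, 5.28, 5.34 and 6.55 CPM in controls J3, J5, J6 and J7 and 3.65, 2.76, 1.70 and 1.32 CPM in mutants K14J26, K14J28, K14J29 and K14J30, so that here K14J26 was the highest mutant. The RAS GTPase-activating protein genes Rasa2 and Rasa3 rose by log2 fold changes of 0.36 (SE 0.07) and 0.79 (SE 0.16), and Lztr1, which encodes an adaptor for RAS degradation, by 0.24 (SE 0.06). Adjusted p lay between 0.0169 and 0.0427 for these 7 genes (edgeR's quasi-likelihood test), and with library size scaling alone Dusp8, Rasa2 and Lztr1 were not called, nor with the Xist covariate Dusp4, Dusp8 and Rasa2. Leaving out J3 or K14J29 ended each of these 7 calls, and leaving out J5, J6, J7, K14J26 or K14J30 some of them, with adjusted p up to 0.115 (Dusp8, edgeR's quasi-likelihood test). Of 19 other ETS genes tested, 0 fell (3 at an unadjusted p under 0.05, 1 with DESeq2, 0 with limma-voom, 2 with upper-quartile or library size scaling) and 2 rose, Elf1 and Fli1, with log2 fold changes of 0.50 (SE 0.10) and 0.37 (SE 0.11), adjusted p = 0.0159 and 0.0422 in edgeR. Fli1 was not called with library size or upper-quartile scaling or the Xist covariate, and passed in 1 of the 8 fits with an embryo left out, without K14J26 (adjusted p up to 0.119); Elf1 lost its call without J7 or K14J29 (up to 0.0552, edgeR's quasi-likelihood test).

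Other genes that ERK signaling can induce went both ways: of 14 tested, 4 fell and 2 rose. Mycn, a growth regulator, had 21.3, 22.3, 18.9 and 23.7 CPM in controls J3, J5, J6 and J7 and 11.4, 11.9, 8.87 and 11.5 CPM in mutants K14J26, K14J28, K14J29 and K14J30. All mutants were far below the controls, and K14J29 stood below the other mutants. The log2 fold change of Mycn was -0.98 (SE 0.12, adjusted p = 0.00517, edgeR's quasi-likelihood test), and Mycn passed without each of the 8 embryos in turn. Phlda1, Epha2 and Emp1 had log2 fold changes of -0.75 (SE 0.14), -0.35 (SE 0.10) and -0.21 (SE 0.06), and for Epha2 the groups overlapped. Egr3, an immediate early gene, and Plaur, the urokinase receptor gene, rose, with log2 fold changes of 1.42 (SE 0.32) and 1.23 (SE 0.36). Plaur had 30.5 CPM in K14J26 and 9.15 to 14.1 CPM in the other mutants, and its log2 fold change without K14J26 was 0.72. Adjusted p of these 5 genes lay between 0.0157 and 0.0476 (edgeR's quasi-likelihood test). Emp1 was not called with library size scaling, Emp1 and Epha2 were not called with the Xist covariate, and Plaur was not called with limma-voom or the robust form of edgeR. Phlda1 lost its call without J3 (adjusted p = 0.0502, from 0.00589 upward over the 8 fits, edgeR's quasi-likelihood test). Of the pathway genes called, Mycn alone passed in edgeR with the ameloblast score and with the skeletal muscle score as a covariate. Epha2, Emp1, Egr3 and Plaur each lost theirs without J5, J7 or K14J29 and without 1 to 3 further embryos among J3, J6, K14J28 and K14J30, with adjusted p up to 0.122 (Plaur, edgeR's quasi-likelihood test).

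**Figure D5:**
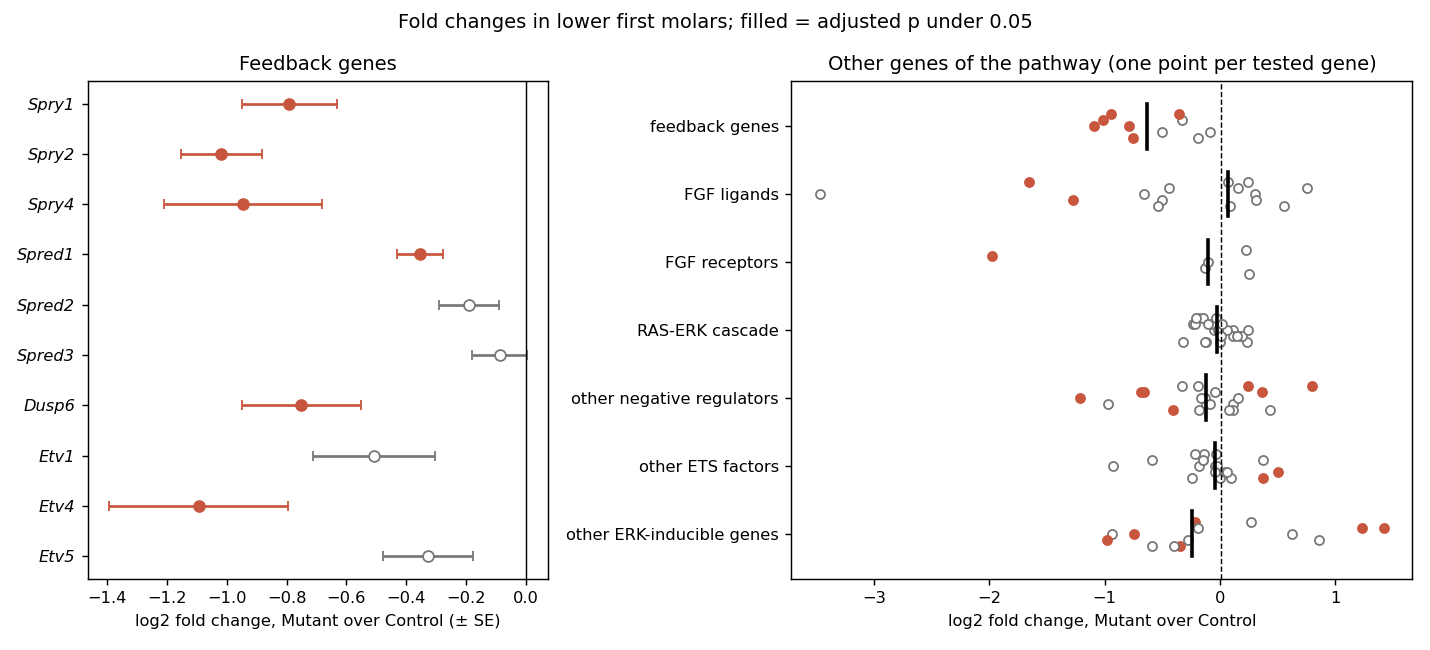
Left, log2 fold change, mutant over control, with its SE for the 10 feedback genes; right, the log2 fold changes of these and of the other pathway genes, 1 point per tested gene, with each list's median as a black bar and the median of all genes tested, 0.01, as a dashed line. Filled points had an adjusted p under 0.05; the feedback genes have a median of -0.63, and no point of the RAS-ERK cascade is filled.

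The genes whose profile over the 8 embryos was most like that of a feedback gene were sought among 11479 other protein-coding genes, by the root-mean-square distance of centred log2(CPM + 0.1). Nearest to Spry2 was Lfng, which encodes a glycosyltransferase that modifies Notch receptors, at a distance of 0.04 log2 units, followed by Mycn at 0.12 and the protocadherin gene Pcdh7 at 0.14. Lfng had 88.5, 89.5, 78.3 and 89.4 CPM in controls J3, J5, J6 and J7 and 44.0, 49.1, 33.1 and 37.9 CPM in mutants K14J26, K14J28, K14J29 and K14J30, so its embryos stood in nearly the same relation as those of Spry2. The nearest feedback gene to Spry2 was Spry1, at 0.28. The feedback genes are a far smaller pool than the 11479 others, so a nearer gene outside them is likely from the numbers alone. Nearest to Spred1 were Atxn1, Mmp15 and Foxp4, at 0.04 to 0.05, nearest to Dusp6 were Dach1, Edaradd and H2afy2, at 0.09 to 0.10, and nearest to Etv5 were Nudt21, Gstk1 and Prpsap2, at 0.07 to 0.08. For Dusp6 the nearest feedback gene, Spry1, was almost as close, at 0.12, and for Spred1 and Etv5 it was Spred2, at 0.14 and 0.21. These distances are a description over 8 embryos of 2 genotypes and were not tested.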

How the data were processed

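Lower first molars of 4 K14Cre;Jagged1 fl/fl and 4 Jagged1 fl/fl embryos were analysed, grouped by the sample labels. Libraries were prepared with a poly(A) kit that does not mark strand and sequenced from a single end. Trimmomatic and STAR were used by the authors for trimming and for alignment to GRCm38; for every embryo they deposited the raw read count of 43629 Ensembl gene identifiers. The paper names GenomicRanges for counting and the submitters' processing notes name featureCounts. The Ensembl release and the treatment of reads with several matches or of strand are not given in the sources used here, so reads of overlapping genes on opposite strands cannot be told apart.

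Symbols and positions came from GENCODE release M21 (GRCm38), which matched 42462 identifiers. A gene was kept if 2 or more of a group's 4 embryos had 10 counts or more, which left 17129. After TMM scaling these were compared in edgeR 4.0.16 (R 4.3.3) by its quasi-likelihood test on genotype alone, and p was adjusted over all 17129 by the Benjamini-Hochberg method. The SE is the absolute log2 fold change over the square root of F. Within a group, every pair of embryos varied beyond counting noise (chi-square per degree of freedom, 6.73 or more). CPM per kb uses the union of annotated exons. Scores are means of log2(CPM + 0.1).

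The 10 genes and the pathway and marker lists were chosen with earlier results of these data known. From a pathway list the text names the genes with an adjusted p under 0.05 and, where fewer than 2 passed, its most abundant; from marker lists, the called genes of 5 lists, named after their values were seen. Likeness was sought for Spry2, Spred1, Dusp6 and Etv5 among genes with a mean of at least 5 CPM, and the 3 nearest are given. Spry3 was not analysed here. Alternatives were scaling by library size alone, by upper quartiles or by relative log expression, DESeq2 1.42.0, limma-voom (limma 3.58.1), robust edgeR, other count filters, thinning to equal depth, leaving out the 20 most abundant genes, the covariates Xist, ameloblast score and skeletal muscle score, an unadjusted p up to 0.05 with an absolute log2 fold change from 0.5 upward (a reading of the study's fold change limit, whose scale is not stated), and leaving out embryos. Histology, RT-PCR and morphology are not analysed here.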

Additional observations from a re-analysis of the deposited data

Results flagged for a closer look

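In groups of 4, a lowest or highest embryo was marked where its gap to the next, divided by the range of the group, was above Dixon's critical value, which chance gives in about 1 of 20 groups; 6 of the 58 groups checked (29 genes) were marked. In the controls, J6 was low for Etv4 (108 CPM, the others 142 to 149) and for Etv5 (65.7 CPM, the others 76.5 to 78.4), and J7 was high for Il17rd (82.3 CPM, the others 63.0 to 65.5). In the mutants, K14J30 was high for Fgfr4 (0.466 CPM, the others 0.133 to 0.144), K14J29 was low for Mycn (8.87 CPM, the others 11.4 to 11.9) and K14J26 was high for Epha2 (77.0 CPM, the others 62.1 to 62.9). Without being marked, J6 was also the lowest control for Spry2, Spry4, Spred1, Spred2, Spred3 and Dusp6, but not for Spry1 or Etv1 (Etv1, 21.2 CPM, J3 19.5). J6 had the highest ameloblast score of the controls, 6.88, and the highest skeletal muscle sum, 400 CPM. The part of either was not tested.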

How the results depend on the processing

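Under the 25 alternatives, 22 planned and 3 chosen after seeing the data, Spry1, Spry2, Spry4, Spred1, Spred3, Dusp6 and Etv4 kept a log2 fold change below 0 in all, and Spred2, Etv1 and Etv5 in 24. The call of Spry2 was lost in 2 (with the ameloblast score, and without J6 and J7), that of Spry1 in 6, of Spred1 in 10 and of Spry4, Dusp6 and Etv4 in 11 each, while Etv1 gained a call in 2. Leaving out 1 embryo at a time gave 1 to 7 of the 10 feedback genes lower (6 with all embryos), 170 to 1843 of all genes lower (1133) and 250 to 2479 higher (1631). Of the feedback genes, 3 were lower with library size only, 4 with robust edgeR, 1 with the skeletal muscle score and 0 with the ameloblast score or without J6 and J7 (edgeR; 3 and 6 at an unadjusted p under 0.05). Of all genes, 1718 were lower with DESeq2, and 855 higher with library size only. With the ameloblast score 112 were lower and 186 higher, with the skeletal muscle score 45 and 45, without J6 and J7 4 and 3, and without K14J26 and K14J29 570 and 747. Fits without embryos have fewer samples; otherwise the cause was not tested. Plaur changed sign with the ameloblast score, to -0.10. Only library size scaling moved the median of all genes by nearly 0.1, by -0.10. No paired analysis was possible because the groups share no replicate number. The 10 genes had 207 counts or more in every embryo, and 6 of them were lower after thinning to equal depth; for those with few counts, such as Spred3, counting noise adds to the spread.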
